A study of Mus musculus with 5 samples.

Results

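The MLL/COMPASS genes Kmt2a, Kmt2b, Kmt2c, Kmt2d, Kmt2e, Setd1a, Setd1b, Wdr5, Ash2l and Rbbp5 were examined in sorted mouse blood-forming cells that had lost the Rb family. The members were chosen by gene symbol, as every probe set that the array annotation assigns to 1 of these symbols and to no other gene. This gave 24 probe sets of 10 genes, out of 18193 genes with such a probe set. Of the members, 8 had several probe sets and 2 had 1, and all 24 are reported because probe sets of 1 gene can disagree. The list of genes was drawn up with the log2 intensity differences of this same contrast known, so the differences and calls below describe the data and are not independent evidence.

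COMPASS complexes methylate lysine 4 of histone H3, a mark of active promoters and enhancers. Each complex is built around a SET-domain methyltransferase (KMT2A to KMT2D, SETD1A or SETD1B), which is weakly active until WDR5, RBBP5 and ASH2L, the shared core, bind it. KMT2A, known as MLL1, is the gene broken by translocations in mixed-lineage leukaemia and is needed for the upkeep of blood stem cells in mice. Pocket proteins bind E2F transcription factors, and E2Fs recruit methyltransferase complexes through the adaptor HCFC1.

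RNA was measured on Affymetrix arrays in KLS cells, sorted as Sca-1+ and c-Kit+ without lineage markers, the marrow fraction that holds stem cells and multipotent progenitors. The Rb family deficient group (3 arrays) was Rb -/- p130 -/- p107-/-. The wild type group (2 arrays), as the titles name it, was Rb +/+ p130 +/+ p107+/-, so it too lacked 1 p107 allele. Mx1-Cre, an interferon-inducible recombinase, was activated in mice of 6 weeks and cells were sorted 2 months later; that promoter also acts in other tissues than blood. The study left 1 of 6 hybridisations out. The labels do not say whether an array is 1 animal or a pool. The p-values therefore cover just the variation among these arrays, and the small number of arrays limits every value. Part of that variation may be technical, though sex-linked RNA, given below, differed between arrays of the same group.

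RefSeq promoter windows (GRCm38.p6, 250 bases before to 50 after a transcript start) were at hand for 6 of the 10 members. The 250 upstream bases of Kmt2d, the member with the largest difference, and of Kmt2a, the founding member of the family, are shown 5′ to 3′ with CG pairs in capitals, because KMT2A and KMT2B dock on unmethylated CG-rich DNA through a CXXC domain. Kmt2d lies on the minus strand at chr15:98871206-98871455, and the transcript start used here is 2872 bases inside the outer end of the RefSeq gene. Kmt2a lies on the minus strand at chr9:44881290-44881539.
Kmt2d: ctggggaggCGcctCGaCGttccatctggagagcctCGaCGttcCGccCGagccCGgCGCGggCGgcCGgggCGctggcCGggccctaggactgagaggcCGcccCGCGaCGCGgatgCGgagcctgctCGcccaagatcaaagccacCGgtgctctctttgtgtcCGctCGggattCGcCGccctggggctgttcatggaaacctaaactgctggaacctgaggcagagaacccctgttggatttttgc
Kmt2a: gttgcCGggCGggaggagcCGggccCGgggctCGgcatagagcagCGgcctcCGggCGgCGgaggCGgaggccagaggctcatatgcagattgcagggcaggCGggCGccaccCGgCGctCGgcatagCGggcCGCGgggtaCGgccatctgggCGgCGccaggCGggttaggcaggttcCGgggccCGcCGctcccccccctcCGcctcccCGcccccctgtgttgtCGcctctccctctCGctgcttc
The full windows held 27 CG pairs for Kmt2d and 36 for Kmt2a, against a median of 7 over 32851 windows of 300 bases. The other members held 16 (Rbbp5), 22 (Wdr5), 35 (Setd1a) and 56 (Kmt2c). By CG count the member windows ranked from percentile 67.0 (Rbbp5) to 99.8 (Kmt2c). Wdr5 ranked at 76.9, Kmt2d at 84.5, Setd1a at 93.0 and Kmt2a at 93.8. The E2F motif TTTNNCGC, with C or G at both N positions and read on both strands, was found in 0 of the 6 member windows and in 2.26% of all windows. The cell cycle homology element searched as TTTGAA or TTCGAA, also on both strands, was in 0 of the 6 and in 19.2% of all windows. These counts say only that those letters are not in these windows.

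The inactivated genes were read first, as a check of the labels. Rbl1, which encodes p107, read 5.15, 4.25 and 4.73 log2 intensity in the deficient arrays, against 8.33 and 7.16 in the wild type arrays (brightest probe set 1424156_at; brightest means the highest mean over the 5 arrays). The Rbl1 difference was -3.04 (SE 0.40, limma, adjusted p = 0.0513). Rb1 (1417850_at) differed by -0.36 (SE 0.33) and by -0.05 without deficient 2, and deficient 1, at 8.93, was its highest array. Rbl2 (1425981_a_at) differed by -0.46 (SE 0.24) and by -0.16 without wild type 1. Both Rb1 and Rbl2 had overlapping arrays. Where their probes lie relative to the deleted exons was not given in the sources used here. Further probe sets of these genes are not given here. Of 6 KLS markers listed 5 were measured, without Ly6a (the Sca-1 gene), and 2 had higher and 3 lower means in deficient cells. Kit averaged 11.02 ± 0.21 in deficient and 10.95 ± 0.18 in wild type cells, and Cd34 averaged 11.98 ± 0.25 and 11.95 ± 0.12 (SD, n = 3 and 2). Procr, a stem cell surface marker, had the largest difference of the 5 KLS markers measured, -1.62 (SE 0.22; limma, adjusted p = 0.0560), and Slamf1 the next, -0.33 (SE 0.27; 0.03 without wild type 1). Arrays differed in sex-linked RNA. Xist, the X-inactivation RNA of females, read 5.09, 12.45 and 5.51 in deficient arrays 1, 2 and 3, against 6.12 and 10.67 in wild type arrays 1 and 2. Y-linked Eif2s3y read 10.21, 3.50 and 10.37 in the deficient arrays, against 9.81 and 9.81 in the wild type arrays. Deficient 2 and wild type 2 therefore stand apart by high Xist, and results without them are given below. They differ from each other, since deficient 2 had low Eif2s3y while wild type 2 carried high Xist and high Eif2s3y together. Whether wild type 2 held RNA of both sexes was not tested.

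Kmt2d, which with KMT2C places monomethylation of lysine 4 at enhancers, was the member with the largest difference and the one that passed the threshold. Its probe set 1435550_at read 9.08, 9.15 and 8.91 in the deficient arrays, against 7.63 and 7.15 in the wild type arrays. All 3 deficient arrays lay above both wild type arrays, and the groups were further apart than either was wide. In the fit over all 45037 probe sets Kmt2d rose by 1.66 on the log2 scale (SE 0.17, 95% interval 1.24 to 2.09, a 3.16-fold intensity ratio; limma, Benjamini-Hochberg adjusted p = 0.0338). The gene's other probe set, 1427555_at, did not share this: it read 5.06, 5.06 and 5.35 in deficient arrays, against 5.16 and 5.56 in wild type arrays. That is a difference of -0.20 (95% interval -0.62 to 0.22) with overlapping groups, so the Kmt2d rise rests on 1 of its 2 probe sets. Probe set 1427555_at was much dimmer, with a mean of 5.24 over the 5 arrays, against 8.39 for 1435550_at. The median of all probe sets was 4.73, and whether so dim a probe set could show a rise was not tested. In sorted bulk cells, more cells with a transcript and more transcript per cell cannot be told apart.

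Setd1b and Setd1a encode the methyltransferases that deposit most trimethylated lysine 4 at promoters. Setd1b had the next largest difference, and its probe sets gave close values. The brighter, 1440836_at, read 8.39, 8.47 and 8.69 in deficient arrays, against 7.57 and 6.89 in wild type arrays, a difference of 1.28 (SE 0.22, 95% interval 0.74 to 1.83). The other, 1437353_at, read 7.24, 7.50 and 7.36 in deficient arrays, against 6.56 and 5.54 in wild type arrays, a difference of 1.32 (SE 0.30). On both probe sets all deficient arrays were above both wild type arrays, while the wild type arrays lay far apart from each other. Neither passed the threshold over all probe sets (limma, adjusted p = 0.0811 and 0.131). Setd1a differed less: its brighter probe set (1427116_at) read 9.18, 9.49 and 9.27 in deficient arrays, against 8.76 and 8.67 in wild type arrays. The difference was 0.60 (SE 0.13, 95% interval 0.28 to 0.91). The dim second probe set of Setd1a (1450336_at) differed by 0.52 (95% interval -0.03 to 1.07), and on it too the groups did not overlap.

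Kmt2a and Kmt2b encode the paired CXXC-domain methyltransferases, of which KMT2A acts on Hox genes. Kmt2a (1427283_at) read 8.61, 8.75 and 8.78 in deficient arrays, against 8.14 and 8.03 in wild type arrays. The groups were tight and did not overlap, with a difference of 0.63 (SE 0.11, 95% interval 0.36 to 0.91). Its second probe set (1452377_at) gave a like difference of 0.68 but scattered widely in both groups, which averaged 6.03 ± 0.54 in deficient and 5.35 ± 0.53 in wild type cells (SD, n = 3 and 2). The 95% interval there was -0.20 to 1.57. Kmt2b, with 1 probe set (1452916_at), read 9.09, 8.81 and 9.09 in deficient arrays, against 8.35 and 7.63 in wild type arrays. Kmt2b thus differed by 1.00 (SE 0.23, 95% interval 0.44 to 1.57), with wild type 2 well below wild type 1. Neither gene passed the threshold (limma, adjusted p = 0.0876 for the brighter Kmt2a probe set and 0.135 for Kmt2b).

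Kmt2c encodes the enhancer methyltransferase most like KMT2D, and its 4 probe sets disagreed in size. The brightest (1434179_at) read 9.12, 9.14 and 8.38 in deficient arrays, against 8.70 and 8.67 in wild type arrays. Deficient 3 lay below both wild type arrays there and the other deficient arrays above them, with a mean difference of 0.19 (95% interval -0.42 to 0.80). Probe set 1434178_at behaved in the same way, at 8.67, 8.75 and 8.13 in deficient arrays, against 8.66 and 8.23 in wild type arrays (difference 0.07). By contrast 1427150_at read 8.50, 8.46 and 8.23 in deficient arrays, against 7.78 and 7.58 in wild type arrays, without overlap (difference 0.72, SE 0.13, 95% interval 0.39 to 1.05). The dimmest, 1457193_at, differed by 0.27 (95% interval -0.05 to 0.60). None of the Kmt2c probe sets passed the threshold; the smallest adjusted p of the 4 was 0.0953 (limma).

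Kmt2e encodes a SET-domain relative, once called MLL5, that has little or no methyltransferase activity of its own and is known to be needed for normal blood stem cell function in mice. Its brightest probe set (1434704_at) read 9.95, 9.84 and 9.90 in deficient arrays, against 9.20 and 9.03 in wild type arrays. The deficient arrays varied by 0.05 (SD) around their mean, and the difference was 0.78 (SE 0.11, 95% interval 0.51 to 1.05; limma, adjusted p = 0.0581). The probe sets, 1427236_a_at, 1439108_at and 1439107_a_at, differed by 0.82, 0.80 and 0.71, each with all deficient arrays above both wild type arrays. The other two were dim, below the median of all probe sets (4.73 log2), and differed by 0.07 (1432602_at) and -0.18 (1432601_at). On the last of these all deficient arrays were below both wild type arrays, at a level where RMA values carry little signal.

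The shared core subunits differed by 0.15 to 0.39 over their 5 probe sets. Wdr5, the WD40 scaffold that holds the methyltransferase, read 10.61, 10.96 and 10.62 in deficient arrays, against 10.45 and 10.46 in wild type arrays (1416581_at). Deficient 2 was the high one, and the difference was 0.28 (SE 0.14, 95% interval -0.07 to 0.63). Its second probe set (1448389_at) differed by 0.39 with overlapping arrays. Rbbp5, a WD40 subunit first named for binding RB, read 9.28, 9.31 and 9.43 in deficient arrays, against 9.02 and 9.08 in wild type arrays (1428886_at), a small difference of 0.29 (SE 0.11, 95% interval 0.03 to 0.55) without overlap. Ash2l, which stimulates catalysis, read 9.32, 9.49 and 9.33 in deficient arrays, against 9.06 and 9.39 in wild type arrays (1420616_at). Those arrays overlapped, with a difference of 0.15 (95% interval -0.19 to 0.50), and the second Ash2l probe set (1420615_at) differed by 0.32 (95% interval -0.23 to 0.87). Core subunits and methyltransferases are set side by side here as values, and whether their differences are unequal was not tested.

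**Figure D1:**
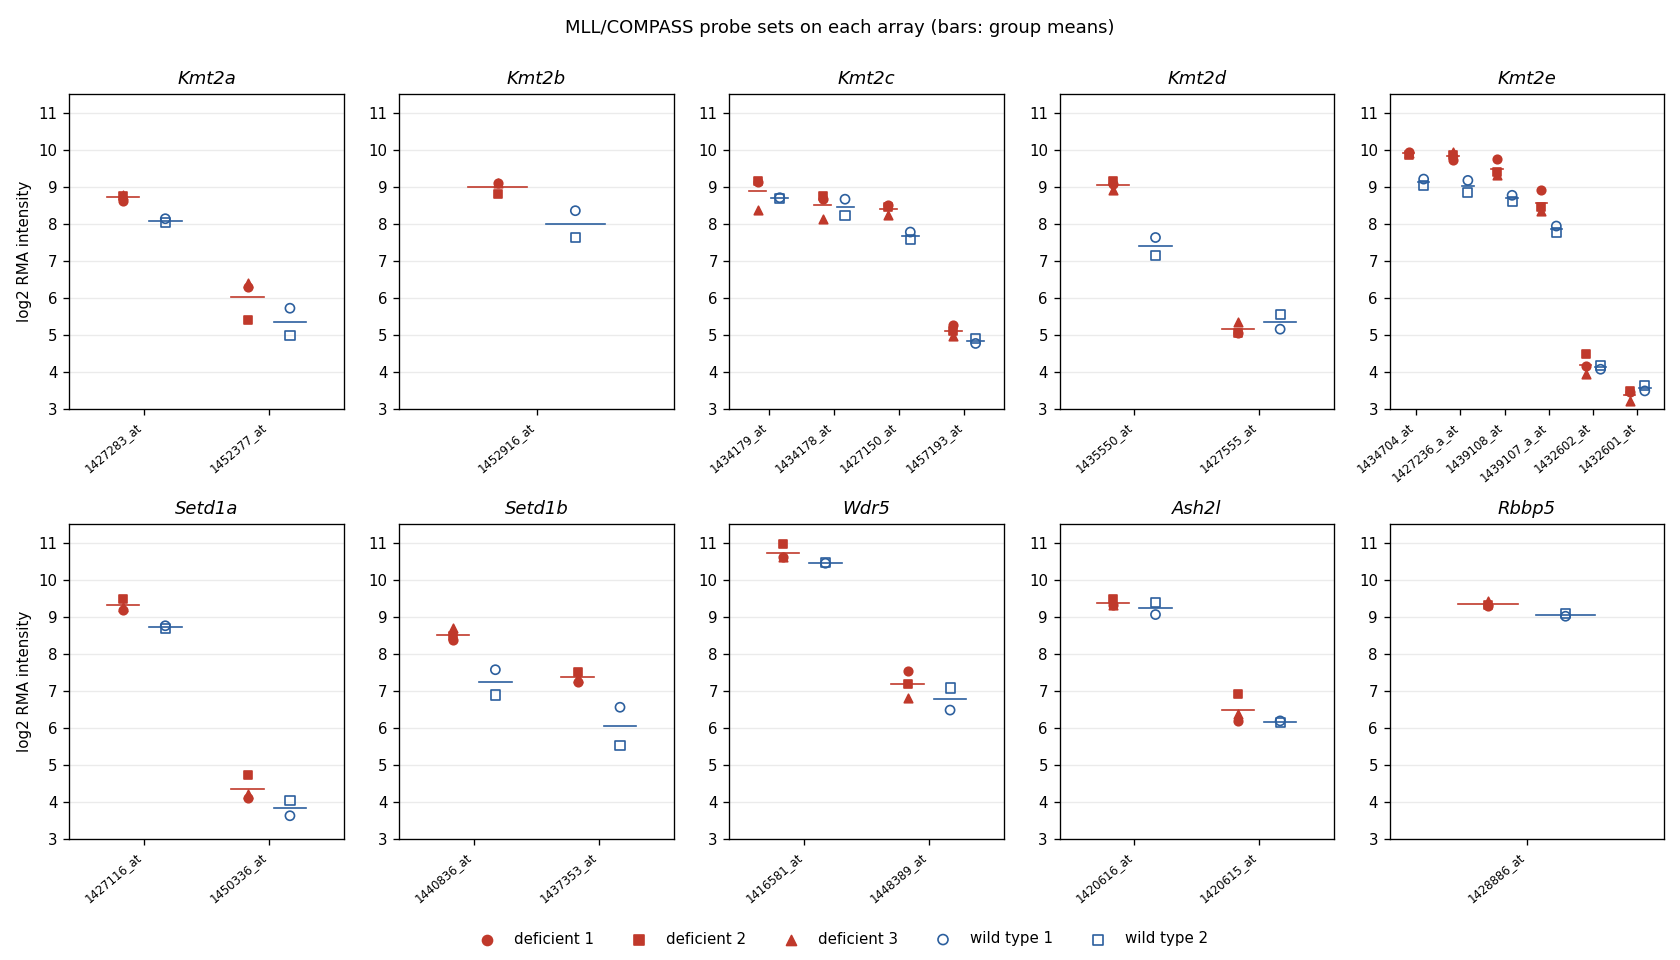
Each panel plots 1 gene; the vertical axis is log2 RMA intensity, each column is a probe set, filled red symbols are the 3 Rb family deficient arrays, open blue symbols the 2 wild type arrays, and bars are group means. Red lies clear above blue on 15 of the 24 probe sets, as it does on 15.4% of all probe sets, and the genes were chosen with this contrast known. The gap is widest for Kmt2d 1435550_at (means 9.05 and 7.39), while Kmt2d 1427555_at overlaps.

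Over the 24 member probe sets, 22 had higher and 2 lower means in deficient cells, with a median difference of 0.56, against 0.00266 over all probe sets. The count past the threshold was 1 higher and 0 lower (limma), where 0.164% of all probe sets were called higher and 0.326% lower; 12 had an unadjusted p under 0.05, as did 14.1% of all probe sets. All deficient arrays were above both wild type arrays on 15 probe sets and below on 1, while 8 overlapped. Over all probe sets 15.4% lay fully above and 15.2% fully below. Because the genes were chosen with this contrast known, nothing is read from these counts. By the brightest probe set of each gene, the 6 methyltransferase genes had a median difference of 0.82 (range 0.19 to 1.66) and the 3 core genes of 0.28 (range 0.15 to 0.29). Of the 24 probe sets 3 were dim. When the fit was run with the brightest probe set of each gene alone, where 0.83% of genes were called higher and 1.41% lower, 3 members passed: Kmt2d, Kmt2e and Setd1b (limma, adjusted p = 0.0162, 0.0352 and 0.0473).

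**Figure D2:**
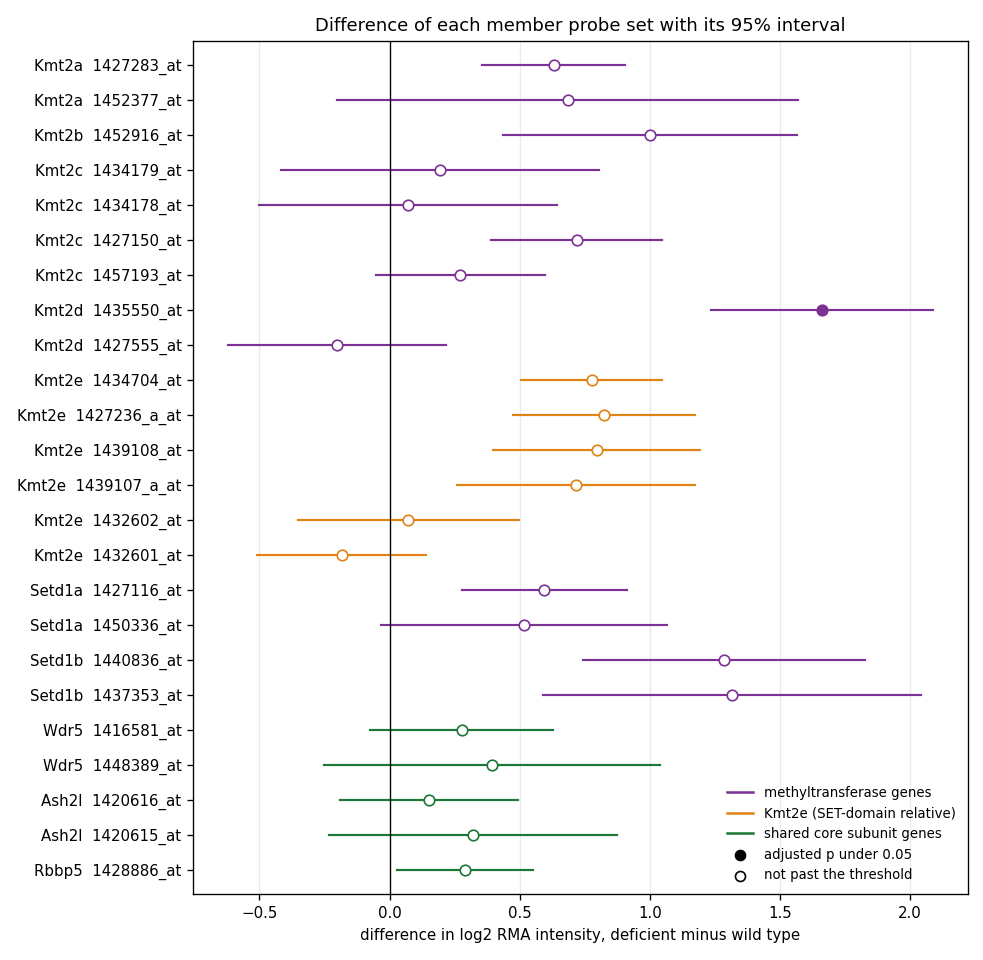
The horizontal axis is the difference in log2 RMA intensity, deficient minus wild type, for each of the 24 probe sets; points are estimates over 3 and 2 arrays, lines are 95% intervals of the limma fit, and colours separate methyltransferases, Kmt2e and core subunits. The single filled point, Kmt2d 1435550_at at 1.66, passed the threshold, and the core subunits lie between 0.15 and 0.39.

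Which arrays the differences rest on was read by leaving out each in turn. The Kmt2d difference ran from 1.42 without wild type 2 to 1.90 without wild type 1. It passed the threshold in none of those 5 fits (limma, adjusted p from 0.0512 without wild type 1 to 0.118 without deficient 1). Setd1b (1440836_at) ran from 0.94 without wild type 2 to 1.63 without wild type 1, and Kmt2b from 0.64 to 1.36 in the same pair of fits. Kmt2a (1427283_at) ran from 0.58 to 0.68 and Kmt2e (1434704_at) from 0.69 to 0.86. The second probe sets of Kmt2a and Setd1b moved more with the wild type arrays: 1452377_at ran from 0.31 without wild type 2 to 1.06 without wild type 1, and 1437353_at from 0.80 to 1.83. For Kmt2c (1434179_at) the difference was 0.06 without deficient 2 and 0.44 without deficient 3, and for Wdr5 (1416581_at) 0.16 without deficient 2. Ash2l (1420616_at) differed by -0.01 without wild type 1, and Kmt2c 1434178_at by -0.14 without wild type 2. Wild type 1 read above wild type 2 on 15 of the 24 probe sets and below it on 9. With both high-Xist arrays left out, leaving deficient 1 and 3 and wild type 1, the Kmt2d difference was 1.37 (adjusted p = 0.138), that of Setd1b 0.97 and that of Kmt2a 0.56.

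**Figure D3:**
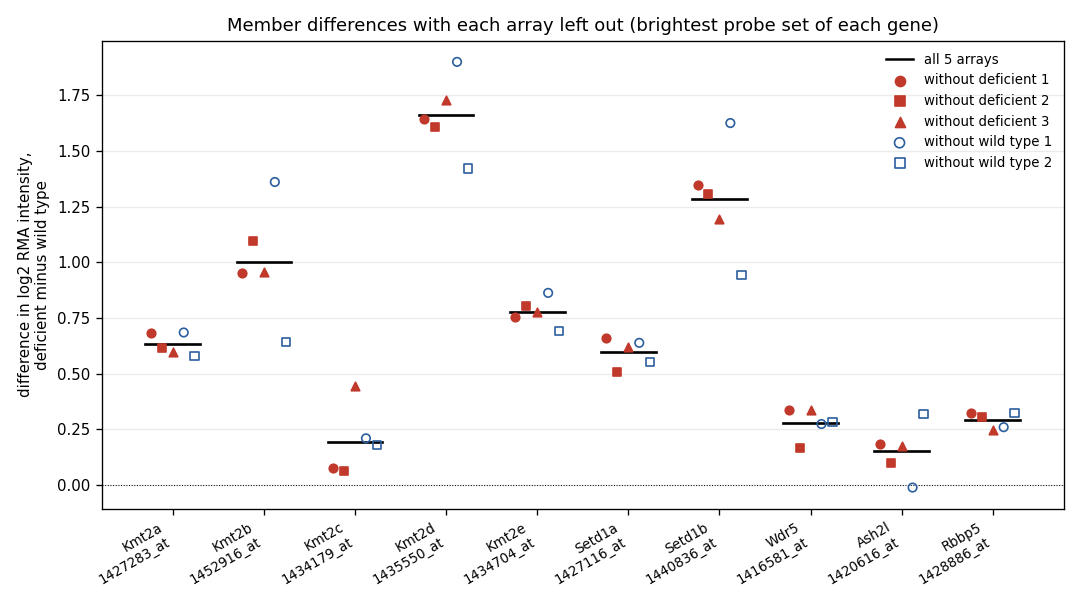
The vertical axis is the log2 difference, deficient minus wild type, for the brightest probe set of each member; the black bar is the value over all 5 arrays and each symbol the value with the named array left out. Leaving out a wild type array moved Kmt2d, Setd1b and Kmt2b the most, and of the 10 genes plotted only Ash2l crossed 0, without wild type 1.

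The 3 probe sets most like Kmt2d 1435550_at over the 5 arrays, by root mean square distance between centred log2 values, belonged to Hipk2 (distance 0.08), Cenpe (1439040_at, 0.10) and Adgrl1 (0.11). Hipk2, a nuclear kinase gene, read 9.77, 9.74 and 9.57 in deficient arrays, against 8.25 and 7.96 in wild type arrays. Cenpe, the kinetochore motor gene, read 6.17, 6.36 and 6.05 on that probe set in deficient arrays, against 4.65 and 4.05 in wild type arrays. Adgrl1, an adhesion receptor gene, read 7.86, 8.12 and 7.60 in deficient arrays, against 6.51 and 5.83 in wild type arrays. In all 3, as in Kmt2d, wild type 2 was the lowest array, which follows largely from choosing them by likeness over these same arrays.

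Other genes of the pathway were read by the brightest probe set of each gene, for which 0.225% of 18193 genes were called higher and 0.61% lower in the same fit, and 18.6% had an unadjusted p under 0.05. Of 13 COMPASS partner genes, 0 passed in either direction (limma; 4 at an unadjusted p under 0.05), 9 had higher and 4 lower means, and the median difference was 0.14, against -0.01 over all genes. All deficient arrays lay above both wild type arrays for 5 of the partners and below them for 2, where 16.5% and 18.6% of all genes did so. Hcfc1, the E2F-linked adaptor of the SETD1 and MLL1 complexes, had the largest difference: it read 9.94, 10.07 and 9.81 in deficient arrays, against 9.23 and 9.11 in wild type arrays. Those groups did not overlap (difference 0.77, SE 0.12; limma, adjusted p = 0.0738). Ncoa6, a coactivator found in KMT2C and KMT2D complexes, differed by 0.58 (SE 0.19), and by 0.32 without wild type 2. Paxip1 encodes PTIP, another subunit of those complexes, and was singled out after its values were seen. Its brightest probe set differed by 0.49 (SE 0.15), and by 0.30 without wild type 1. The Paxip1 probe set with the largest difference, 1423302_a_at, read 8.62, 8.71 and 8.77 in deficient arrays, against 7.33 and 7.80 in wild type arrays. That difference was 1.14 (SE 0.16, limma, adjusted p = 0.0582). Probe sets 1454943_a_at and 1423303_at differed by 1.01 and 0.90. Men1 and Dpy30, which encode menin and a further core subunit, differed by 0.04 (95% interval -0.30 to 0.38) and 0.07 (95% interval -0.27 to 0.42).

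Of the 6 genes for enzymes that remove lysine 4 methylation, 0 passed (limma; 1 at an unadjusted p under 0.05), and the median difference was -0.05. Kdm5c, an X-linked demethylase gene that escapes X inactivation, read 8.76, 9.08 and 8.89 in deficient arrays, against 7.93 and 8.02 in wild type arrays, a difference of 0.93 (SE 0.13; limma, adjusted p = 0.0581). Deficient 2, with high Xist, was the highest for Kdm5c, and all 3 deficient arrays lay above both wild type arrays. The 9 probe sets of Kdm5c disagreed, with differences from -0.16 (1457930_at) to 0.93 (1444158_at). Kdm5d, its Y-linked relative, read 7.13, 3.25 and 7.17 in deficient arrays, against 7.07 and 6.70 in wild type arrays. The mean difference was -1.03 with all arrays and 0.26 without deficient 2, the array with low Eif2s3y. Of the other lysine 4 methyltransferase genes, 5 of 6 listed were measured and 0 passed (limma; 1 at an unadjusted p under 0.05), with a median of -0.13. Setd7 differed by 0.45 (SE 0.17) and Smyd3 by -0.27 (SE 0.16; -0.15 without wild type 2).

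Genes known as targets of MLL1 in blood cells made up the last list. Of 10 listed genes 9 were measured, and 0 passed (limma, with 4 at an unadjusted p under 0.05). In deficient cells 8 had lower and 1 a higher mean, where 9446 of all 18193 genes had lower means. The median was -0.16, against -0.01 over all genes. All deficient arrays lay below both wild type arrays for 4 of the targets and above them for 0, where 18.6% and 16.5% of all genes did so. Eya1, a transcriptional coactivator gene, read 6.57, 6.50 and 7.36 in deficient arrays, against 8.52 and 7.55 in wild type arrays (difference -1.23, SE 0.37). Mecom, a stem cell transcription factor gene, read 8.64, 8.68 and 9.14 in deficient arrays, against 10.55 and 9.48 in wild type arrays (difference -1.19, SE 0.33). Its other probe sets, 1438325_at aside, were dim and differed by 0.01 and 0.07. Further probe sets of Eya1 are not given here. On the brightest probe sets the groups did not overlap, and both genes missed the threshold (limma, adjusted p = 0.220 and 0.189). Without wild type 1, the higher of the wild type arrays for both, Eya1 differed by -0.75 and Mecom by -0.66. The leukaemia-linked targets Hoxa9 and Meis1, named after their values were seen, differed by 0.12 (95% interval -0.36 to 0.61) and -0.16 (95% interval -0.69 to 0.37), and the signs turned when a wild type array was left out (Hoxa9 -0.16 without wild type 2, Meis1 0.14 without wild type 1).

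**Figure D4:**
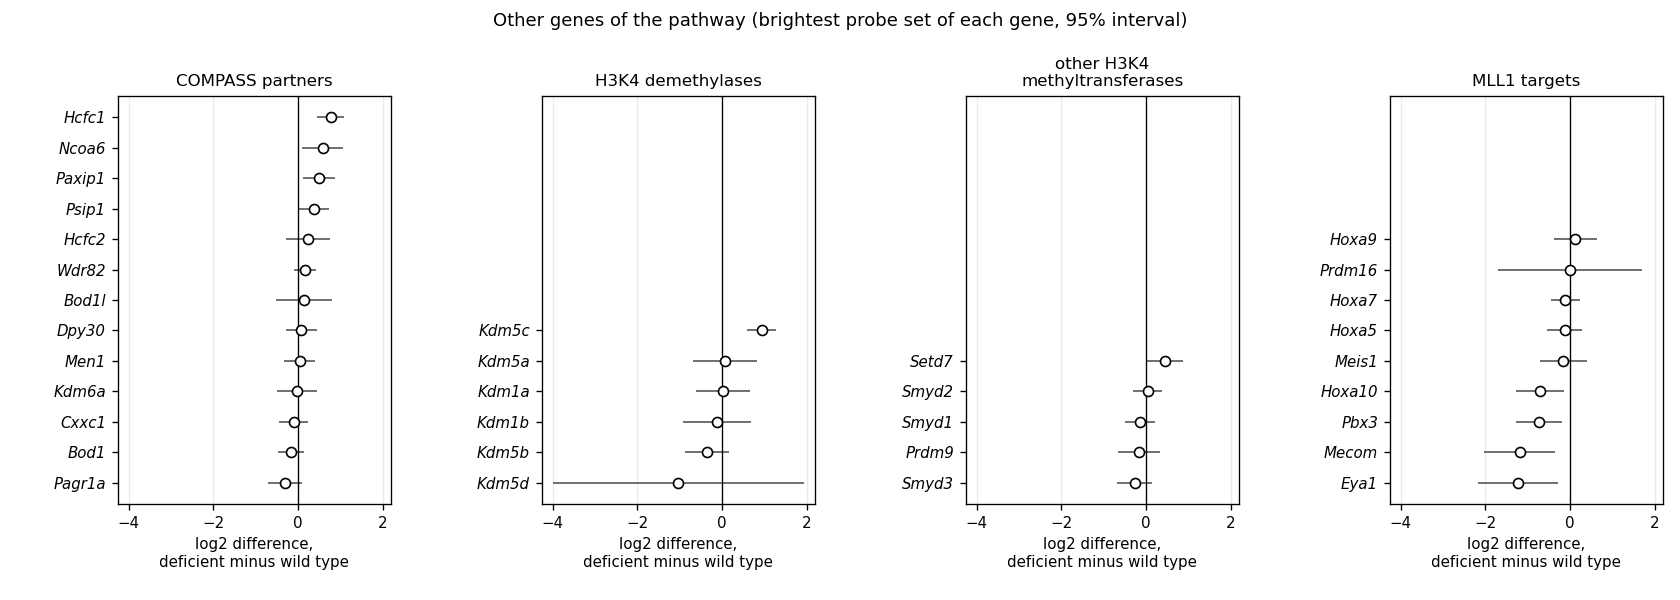
Each panel plots 1 gene list, with the log2 difference, deficient minus wild type, on the horizontal axis, open points for the brightest probe set of each gene and lines for 95% intervals over 3 and 2 arrays. No gene passed the threshold in these lists; Hcfc1 (0.77) and Kdm5c (0.93) lie furthest to the right, and Kdm5d, low on deficient 2, has the widest interval.

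Several markers of the cell cycle and of other cell types differed between the groups. They were read by the brightest probe set of each gene, for which 0.225% of all genes were called higher and 0.61% lower. Summed intensity over 9 measured mitosis genes ran from 17709 to 21577 in deficient arrays and from 9778 to 11577 in wild type arrays, with 3 called higher (Espl1, Bub1 and Mki67) and all 9 means higher; the brightest Cenpe probe set differed by 1.47 (SE 0.19). The 10 neutrophil genes summed to between 28644 and 30629 in deficient arrays and between 68066 and 81404 in wild type arrays, with 7 called lower (Ngp, Camp, S100a9, Ltf, S100a8, Cd177 and Lcn2). Within that list the early-granule genes Elane and Mpo differed by 0.81 and 0.39. Plasma and B cell genes (7 of 8 listed) summed to between 3460 and 4426 in deficient arrays and between 16249 and 19226 in wild type arrays, with Igha and Jchain called lower. Macrophage and dendritic genes (6) summed to between 1815 and 2213 in deficient arrays, against 4420 and 6506 in wild type arrays, with 0 called; the antigen presentation genes Cd74 and H2-Aa differed by -2.71 (SE 0.38) and -2.70 (SE 0.63). T and NK genes (6) summed to between 2316 and 2937 in deficient arrays, against 1590 and 2341 in wild type arrays, with Klrd1 called lower and 5 of the 6 means lower. Most of that sum was Nkg7, the gene with a higher mean, at 2524, 2205 and 2818 in deficient arrays, against 1360 and 1927 in wild type arrays. Cd3g differed by -1.82 (SE 0.92) with all arrays and by -0.08 without wild type 2, the 1 array where it was high. Megakaryocyte genes (6) summed to between 4543 and 6048 in deficient arrays, against 4962 and 4979 in wild type arrays, with Itga2b called higher and Pf4 differing by -0.82 (SE 0.36; -0.46 without deficient 2). Of 6 erythroid genes 4 were measured, summing to between 1126 and 2480 in deficient arrays, against 1250 and 2246 in wild type arrays, with 0 called; Klf1 differed by -0.55 (SE 0.54; -0.05 without wild type 2) and Gata1 by 0.49 (SE 0.29; 0.14 without wild type 1). RMA gives no value of 0, so 0 markers were at 0. The 3′ minus 5′ log2 signal of beta-actin, a measure of RNA integrity, was 3.40, 3.53 and 3.34 in deficient arrays, against 3.16 and 3.12 in wild type arrays. That of Gapdh was 4.67, 4.45 and 4.87 against 4.57 and 4.71. For beta-actin all 3 deficient arrays lay above both wild type arrays, while for Gapdh the groups overlapped. On every array the 3′ signal was far above the 5′ signal, and its bearing on probe sets that disagree was not tested. The part of these marker and 3′ to 5′ shifts in the member differences was not tested.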

How the data were processed

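Sorted KLS cells were profiled on Affymetrix arrays. Each array has 1 deposited intensity per probe set, on a linear scale from 6.96 to 31249. These intensity values came from RMA as run by the authors, per the submitters' processing notes; its software and version, and whether the excluded array took part, were not given in the sources used here. RMA forces arrays to similar distributions (medians 26.1 to 26.7) and compresses dim differences. Here log2 was taken, 64 AFFX control probe sets were left out, and deficient minus wild type was fitted over 45037 probe sets and all 5 arrays with limma 3.58.1 in R 4.3.3 (lmFit, eBayes, no covariate, two-sided, Benjamini-Hochberg, threshold adjusted p under 0.05). The fit was tested on simulated data.

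GEO's platform annotation gave 1 symbol to 34945 probe sets, several to 932 and none to 9160; no member shares a probe set with another symbol. Of the 5 columns, 0 were unmatched. The members and lists were chosen with earlier results of these data known. Named were all member probe sets, the pocket protein genes, of each other list the genes past the threshold and the 2 with the largest difference, and the 3 genes most like the member with the largest difference. Men1, Dpy30, Paxip1, Hoxa9, Meis1, Kit, Cd34, Ly6a, Xist, Nkg7, Elane and Mpo lie outside this rule. For arrays no depth applies, and their number limits the precision. Alternatives were normalization again, median centring, leaving out dim or cross-matching probe sets, an intensity trend, a threshold of 0.1, the replicate number as a block, 1 probe set or the mean per gene, each array left out, and, chosen after seeing the data, leaving out both high-Xist arrays. Background correction and a slide block could not be varied, since scanner files and slides were not used here.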

Additional observations from a re-analysis of the deposited data

How the results depend on the processing

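The Kmt2d 1435550_at call was kept under quantile normalization again, median centring, both probe set filters and an intensity trend (log2 differences 1.64 to 1.68, adjusted p from 0.0186 to 0.0363; limma throughout). Over all probe sets the 221 calls became 401 with an intensity trend, 948 at an adjusted p under 0.1, 408 with 1 probe set per gene and 388 with the mean per gene. Without single arrays they ran from 23 (without deficient 1) to 78 (without wild type 1), and without both high-Xist arrays they numbered 21. The member count of 1 became 6 at an adjusted p under 0.1, 3 with 1 probe set per gene (Kmt2d, Kmt2e and Setd1b) and 0 without both high-Xist arrays; without single arrays it was 0 in all 5 fits. The COMPASS partner count of 0 became 1 (Hcfc1) at an adjusted p under 0.1, with 1 probe set per gene and with the mean per gene. The demethylase count of 0 became 1 (Kdm5c) at an adjusted p under 0.1 and with 1 probe set per gene. Fewer features were tested with 1 value per gene; beyond that the cause was not tested.

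The numbers in the titles are shared by 2 pairs of arrays, whose deviations from the group means correlated at -0.05 and -0.02 over probe sets. With 2 wild type arrays the deviations of 1 mirror those of the other, so these correlations cannot decide whether the numbers pair the samples. The main fit used no pairing. With the replicate block the fit called 15 probe sets in all and 0 members, and the Kmt2d difference was 1.73 (adjusted p = 0.164). Of 295 member differences under the alternatives, 9 changed sign, on 4 probe sets (Kmt2c 1434178_at, Kmt2d 1427555_at, Kmt2e 1432602_at and Ash2l 1420616_at), none of them called. Member differences have no value per probe set under the mean per gene. A fit with 1 wild type array assumes that it varies like the others. Dim probe sets limit what can be seen, since signal there is close to background.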
